A study of Mus musculus with 4 samples.

Results

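The potassium channel tetramerisation domain (KCTD) genes described here are Kctd12 and 8 relatives (Kctd2, Kctd3, Kctd5, Kctd9, Kctd10, Kctd13, Kctd17 and Kctd20), 9 of the 24473 genes with counts and FPKM values in the series. They were taken by gene symbol. Kctd12 was selected on its counts and FPKM in the control and knockdown libraries, among whose called genes it is, and the other 8 were chosen as its relatives with the same values in view. Levels per gene length are in FPKM, fragments scaled to gene length and library depth. All knockdown-against-control values of these 9 genes are therefore a description and carry no test. The cells were BV-2, an immortalised mouse microglial line cultured in serum-containing medium, and all 4 libraries came from cells given lipopolysaccharide (LPS, a bacterial cell wall component) at 100 ng/mL for 24 h. The 2 control libraries carried the genotype label WT and the sample names sh c1 and sh c2, and the 2 knockdown libraries the label SIX2 knockdown and the names sh s1 and sh s2, SIX2 being a homeobox transcription factor. The labels do not say what the controls received under their sh name, what hairpins or clones were used, or whether replicates were separate cultures, so the spread between replicates may be technical.

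KCTD proteins carry a BTB domain through which they assemble into ring-shaped oligomers. Many of them bind the scaffold cullin-3 and bring proteins to this ubiquitin ligase for marking. KCTD12 belongs to another branch, which attaches to GABA-B receptors, the G protein-coupled receptors for the transmitter GABA, binds the G protein beta-gamma subunits released on activation, and makes the receptor response fade faster. The deposited annotation gives protein homooligomerization to 8 of the 9 genes (Kctd20 being the exception), and the cullin-3 ubiquitin ligase complex to 3, Kctd10, Kctd13 and Kctd17.

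The libraries held 61.0 to 75.7 M estimated counts. Six2 itself had 0 counts in all 4 libraries. There, 12 counts or fewer per library (taken as 3 sequenced fragments, 0.159 to 0.197 CPM, counts scaled to library size) could have been missed. The labels could therefore not be checked on the targeted gene. Of 11 microglia and macrophage markers, Cd68 had 628 to 667 CPM and Csf1r 215 to 312 CPM, while Cx3cr1 stayed at 0.257 to 0.853 CPM and P2ry12 at 24, 4, 0 and 0 counts (control 1 and 2, knockdown 1 and 2). The summed level of all 11 was 2025 and 2057 CPM in control and 1909 and 1853 CPM in knockdown libraries. Of the 11, 10 had enough counts to be tested, P2ry12 being the exception. edgeR called 2 of the 10 lower in knockdown libraries, against 0.547% of all genes tested. They were Csf1r (log2 difference -0.48, Benjamini-Hochberg adjusted p = 0.0426) and Aif1 (adjusted p = 0.0440). limma-voom called 0 of the 10, against 0.413% of all genes. DESeq2 called 3, against 4.22% of all genes: Aif1, Csf1r and Tmem119 (26.2, 22.4, 14.8 and 12.2 CPM, adjusted p = 0.0751 by edgeR). Csf1r lost its edgeR call with any 1 library left out (adjusted p = 0.0878 to 0.227), and without the robust option (0.102). Trace markers of other brain cells differed between the libraries: 6 neuron markers summed to 7.43, 7.63, 3.98 and 0 CPM, 4 oligodendrocyte markers to 15.1, 14.3, 8.37 and 0.316 CPM and 4 astrocyte markers to 4.52, 3.17, 2.03 and 0.711 CPM, in the same order. All 6 neuron markers were at 0 in knockdown library 2. Of 5 fibroblast and endothelial markers the sum was 0.569 to 0.760 CPM.

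The start region of Kctd12 is shown first because it is the member with the widest difference and a microRNA gene model lies on it. Kctd12 (ENSMUSG00000098557) lies on the minus strand of chromosome 14, 102976581 to 102982637 on GRCm38, and its coding transcript is 1 exon of 6057 bases, with 197 bases of 5′ UTR, 981 coding bases and 4879 bases of 3′ UTR. The 250 bases before its start (chr14:102982638-102982887, minus strand, GRCm38.p6, RefSeq), 5′ to 3′ with every CG pair in capitals, read:
Kctd12 upstream region: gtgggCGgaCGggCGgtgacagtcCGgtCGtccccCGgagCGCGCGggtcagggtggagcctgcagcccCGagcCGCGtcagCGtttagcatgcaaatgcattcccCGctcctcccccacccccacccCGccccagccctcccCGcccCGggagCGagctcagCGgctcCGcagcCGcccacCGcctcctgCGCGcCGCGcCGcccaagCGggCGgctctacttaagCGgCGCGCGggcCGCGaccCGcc
The mature microRNA of the Mir5130 model (minus strand, GRCm38.p6, chr14:102982608-102982631, RefSeq), with its seed (bases 2 to 8) in capitals, reads:
mmu-miR-5130: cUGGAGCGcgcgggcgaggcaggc
This 24-base sequence is bases 7 to 30 of the Kctd12 transcript, within the 5′ UTR, on the same strand. The upstream region of Kctd12 held 36 CG pairs at 77.6% G and C, against a median of 6 pairs and 52.4% over 32851 such regions of all genes, which put it at the 97.4th percentile by pairs. Upstream regions were at hand for 7 of the 9 members (9 regions, Kctd20 having 3), not for Kctd9 and Kctd17. They held 15 to 34 pairs in the other members, apart from the third Kctd20 region with 4. The letters TCAGGTTTC and GGTATCA, which SIX-family proteins are known to bind, were searched on both strands. They were present in 0 of the 9 regions, and in 0.387% and 1.18% of all regions. No match says only that these letters are not in these windows.

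Kctd12 mRNA was lower in both knockdown libraries. Control libraries 1 and 2 held 15028 and 12199 Kctd12 counts, and knockdown libraries 1 and 2 held 5968 and 5041. Scaled to library size this was 197.0 and 197.3 CPM against 80.6 and 79.6 CPM. The groups did not overlap, and the replicates of each group lay within 1 CPM of each other. Its level in knockdown libraries was 40.6% of that in controls, a log2 difference (knockdown minus control) of -1.30 ± 0.07 (SE). Each SE here is the size of the log2 difference divided by the square root of the edgeR F statistic. That statistic borrows spread across genes. In FPKM Kctd12 went from 29.6 ± 0.250 to 11.7 ± 0.134 (SD, n = 2 each). In knockdown libraries 1 and 2, where Kctd12 had 80.6 and 79.6 CPM, the neuron markers summed to 3.98 and 0 CPM, and their part in the Kctd12 values was not tested. In bulk RNA, fewer cells making a transcript and less transcript per cell cannot be told apart.

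In the fit across all genes Kctd12 was the 1 member of 9 called lower, 0 were called higher and 8 were not called (edgeR quasi-likelihood test, Benjamini-Hochberg adjusted p under 0.05). Of all 15733 genes tested, 0.547% were called lower and 0.407% higher. The members were chosen with this contrast in view, so nothing is read from these counts. Kctd12 was not called by limma on log2(FPKM + 1) or log2(FPKM + 0.1) values (adjusted p = 0.0757 and 0.0607), with a difference of -1.26 and -1.33. With a replicate block edgeR did not call it either (adjusted p = 0.0521), with a difference of -1.30. The 2 groups' CPM ranges were separate in 6 of the 9 members, 3 higher and 3 lower in knockdown libraries, against 47.6% of all genes tested. The median log2 difference of the 9 members was -0.06, and that of all genes tested -0.01.

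**Figure D1:**
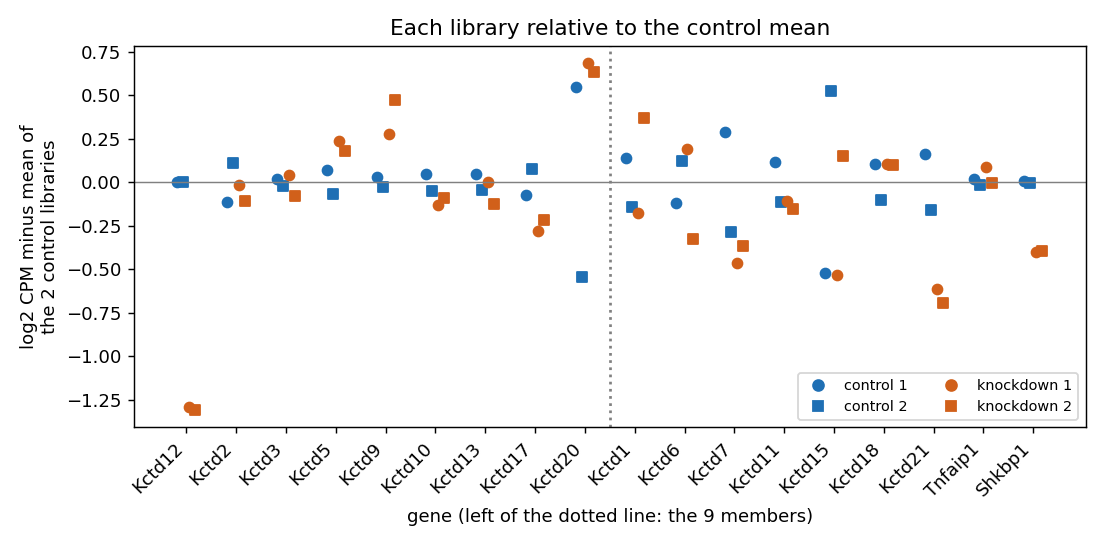
Log2 CPM of each library minus the mean of the control libraries (y axis) for the 9 members and for the 9 other tested KCTD family genes with counts in every library (x axis); circles are replicate 1, squares replicate 2, blue control and orange knockdown. Both knockdown points of Kctd12 lie about 1.30 below its control points, while the control points of Kctd20 lie far apart.

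The Mir5130 model, 84 bases long, covers bases 6 to 89 of the Kctd12 transcript on the same strand. Its counts were 1 and 1 in the control libraries and 47 and 39 in the knockdown libraries, the opposite direction to Kctd12. The control values lay below the floor of 12 counts and the knockdown values above it, so no fold is given. edgeR did not call it (adjusted p = 0.118), whereas DESeq2 (adjusted p = 0.0106) and limma on log2(FPKM + 1) and log2(FPKM + 0.1) values (adjusted p = 0.0348 and 0.0249) did, and over all alternatives its adjusted p ran from 0.0106 to 0.361. The libraries were made from oligo-dT-selected mRNA with inserts too long for a mature microRNA, and the sources used here do not give how counting divided fragments between overlapping models. Adding the Mir5130 counts to those of Kctd12, an alternative added once the values were known, left the Kctd12 difference at -1.29.

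**Figure D2:**
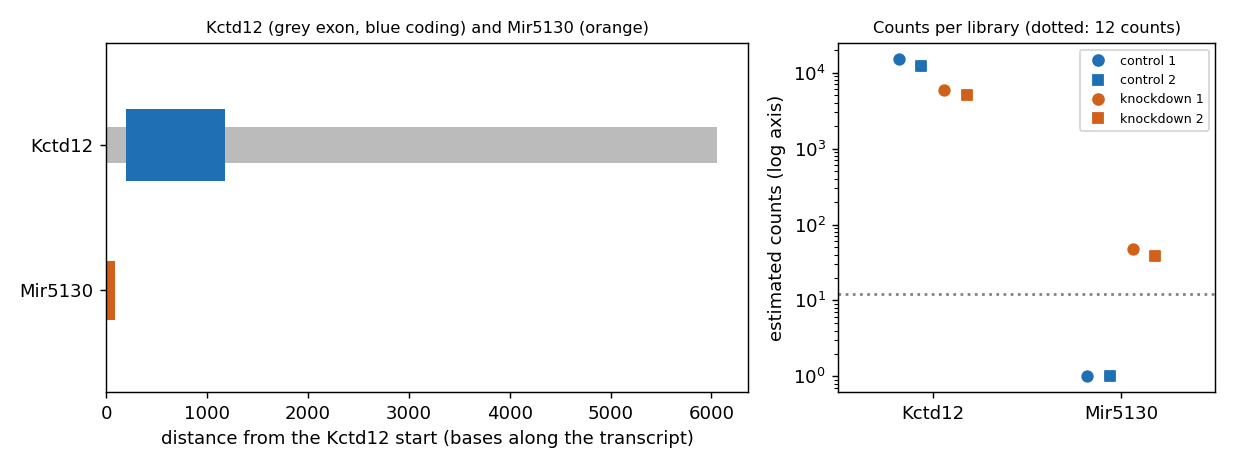
Left, the Kctd12 transcript (grey exon, blue coding part) and the Mir5130 model (orange) by distance from the Kctd12 start in bases; right, estimated counts of both in each library on a log axis, with circles for replicate 1, squares for replicate 2, blue for control, orange for knockdown and a dotted line at 12 counts. Kctd12 is lower and Mir5130 higher in both knockdown libraries, where Mir5130 had 47 and 39 counts.

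The nearest tested genes on either side of Kctd12 had few counts. Gm34589, 142 kb away towards lower coordinates (102818164 to 102834758), had 36, 24, 46 and 22 counts (control 1 and 2, knockdown 1 and 2). 4933432I03Rik, 4.78 kb away on the other side (102987412 to 103033803), had 93, 81, 74 and 140, in the same order. Neither was called by edgeR (adjusted p = 0.958 and 0.828). The next gene with high counts on that side, named after its values were seen, is Acod1, the itaconate-producing enzyme of activated macrophages (103046977 to 103056573, 64.3 kb from Kctd12). It had 330.3 and 300.1 CPM in control and 179 and 185 CPM in knockdown libraries, a log2 difference of -0.79 ± 0.08 (SE), and edgeR called it (Benjamini-Hochberg adjusted p = 0.0152). Acod1 lost this call in other fits: its adjusted p was 0.0563 without edgeR's robust option, 0.157 and 0.127 by limma on log2(FPKM + 1) and log2(FPKM + 0.1), and 0.0502, 0.0509 and 0.0829 by edgeR without control library 1, knockdown library 1 and knockdown library 2. Over all alternatives it ran from 2.07e-14 (DESeq2) to 0.157.

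The levels of the 9 genes, compared per length in FPKM, put Kctd12 first in control libraries at 29.6 FPKM and at rank 5 in knockdown libraries at 11.7 FPKM. In controls Kctd5 (17.9) and Kctd10 (17.6) followed with overlapping ranges, then Kctd13 (14.6), Kctd17 (12.4), Kctd20 (8.57), Kctd3 (4.55), Kctd9 (1.67) and Kctd2 (1.62). The ranges of the last 2 overlapped, and those of the other neighbours in this order did not. In knockdown libraries the order was Kctd5 (20.1), Kctd10 (15.9), Kctd13 (13.6), Kctd20 (12.3), Kctd12, Kctd17 (10.1), Kctd3 (4.39), Kctd9 (2.12) and Kctd2 (1.51), with no overlap between neighbours, each range being of 2 libraries. Over all 4 libraries, the ranges of Kctd12 and Kctd5, Kctd5 and Kctd10, Kctd13 and Kctd17, Kctd17 and Kctd20, and Kctd9 and Kctd2 overlapped. Kctd12 made up 26.2% and 28.4% of the summed FPKM of the 9 genes in control libraries and 12.7% and 12.8% in knockdown libraries. The other 8 genes summed to 82.7 and 74.9 FPKM in control and 81.1 and 79.1 FPKM in knockdown libraries, so the groups overlapped in that sum.

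**Figure D3:**
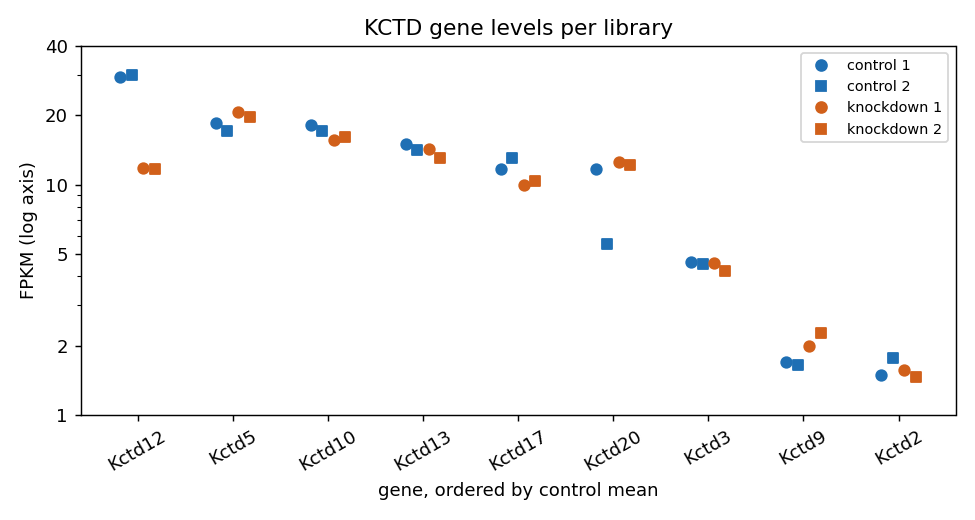
FPKM on a log axis (y) of the 9 genes (x, ordered by control mean) in each library, with circles for replicate 1, squares for replicate 2, blue for control and orange for knockdown. Kctd12 goes from the highest control level, 29.6 FPKM, to 11.7 FPKM in knockdown libraries. There it lies below every value of Kctd13 and within the ranges of Kctd17 and Kctd20 over all 4 libraries.

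Kctd2, Kctd5 and Kctd17 encode close relatives that act as cullin-3 adaptors, and KCTD5 is known to direct the degradation of G protein beta-gamma subunits. Kctd5 (chromosome 17, 24047734 to 24073485, minus strand) had 76.7 and 69.8 CPM in control and 86.3 and 82.7 CPM in knockdown libraries. Both knockdown values lay above both control values, and the log2 difference was 0.21 ± 0.09 (SE). Kctd17 (chromosome 15, 78428564 to 78439303, plus strand), whose protein is known from the turnover of trichoplein in the making of cilia, had 32.8 and 36.4 CPM in control and 28.4 and 29.7 CPM in knockdown libraries. It lay lower without overlap, by -0.25 ± 0.11. Kctd2 (chromosome 11, 115420128 to 115431274, plus strand) was the lowest of the 9 by length, with 4.97 and 5.81 CPM against 5.32 and 4.98 CPM. Its groups overlapped, with a log2 difference of -0.07 ± 0.22. Without control library 2 the Kctd2 value was 0.05, so its side of 0 rests on that library.

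Kctd10 and Kctd13 encode cullin-3 adaptors known to target the small GTPase RhoA, which controls the actin skeleton. Kctd10 (chromosome 5, 114363567 to 114380508, minus strand) had 80.9 and 75.6 CPM in control and 71.3 and 73.5 CPM in knockdown libraries. The gap between the groups, from 75.6 to 73.5 CPM, was smaller than the distance between the control replicates, and the log2 difference was -0.11 ± 0.08. Kctd13 (chromosome 7, 126928879 to 126945631, plus strand) had 41.1 and 38.6 CPM against 39.8 and 36.6 CPM. Its groups overlapped, with a log2 difference of -0.06 ± 0.10. Without knockdown library 2 the Kctd13 value was 0.002. Gm21984 and Gm44735 overlap Kctd13 on the same strand, with 34 to 99 and 0 to 25 counts per library beside 2315 to 3138 for Kctd13, and Asphd1 overlaps its end on the other strand with 3 to 24 counts. At the start of Kctd20, 1700063J08Rik on the other strand had 0 to 4 counts.

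Kctd20, whose protein is reported to raise phosphorylation of the kinase Akt, had a value set by 1 library. Kctd20 (chromosome 17, 28951950 to 28969549, plus strand) had 100.6 and 47.2 CPM in control and 110.6 and 107.0 CPM in knockdown libraries. Control library 2 stood apart from the other 3 libraries, and the log2 difference was 0.56 ± 0.47. It was 0.11 without control library 2 and 1.20 without control library 1, and in the second case edgeR called it (adjusted p = 0.0310). Kctd9 (chromosome 14, 67715937 to 67742310, plus strand), a cullin-3 adaptor, had 8.94 and 8.60 CPM in control and 10.6 and 12.2 CPM in knockdown libraries. It lay higher without overlap, by 0.38 ± 0.16, at a low level. Kctd3 (chromosome 1, 188971095 to 189007840, minus strand), whose protein binds the pacemaker channel HCN3, had 41.3 and 40.2 CPM against 41.9 and 38.6 CPM. Its groups overlapped and its log2 difference was -0.02 ± 0.10. The Kctd3 value was 0.0007 without control library 1 and 0.04 without knockdown library 2. Apart from Kctd12, the 8 members ranged from -0.25 to 0.56.

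Of 16 other genes of the KCTD family, 15 were in the files and 10 had enough counts to be tested. None of the 10 was called by edgeR, against 0.953% of all genes in either direction, and their median log2 difference was -0.19. At an unadjusted p under 0.05, 3 of them passed, all lower, against 14.2% of all genes in either direction. Among the 3 was Kcnrg, named after its values were seen, with 12, 19, 0 and 0 counts, near the floor of 12 counts (control 1 and 2, knockdown 1 and 2). Shkbp1, encoding a KCTD protein that binds the adaptor SH3KBP1, had 42.0 and 41.6 CPM in control and 31.6 and 31.9 CPM in knockdown libraries (log2 difference -0.40 ± 0.10, adjusted p = 0.142 by edgeR and 0.0258 by DESeq2). It was the 1 gene of this list that DESeq2 called, where DESeq2 called 4.22% of all genes to which it gave an adjusted p. Tnfaip1, the third RhoA-targeting adaptor beside Kctd10 and Kctd13, had 84.7 and 82.6 CPM against 88.9 and 83.4 CPM (adjusted p = 0.884 by edgeR). Kctd18 had 8.74 and 7.57 CPM against 8.74 and 8.70 CPM. Kctd21, named after its values were seen, had 8.44 and 6.78 CPM against 4.94 and 4.68 CPM (adjusted p = 0.248 by edgeR). Of the nearest relatives of Kctd12, which also attach to GABA-B receptors, 2 had few counts: Kctd12b had 4, 0, 0 and 8 counts, and Kctd16 had 0, 0, 12 and 4. Kctd8, another of these relatives, was the 1 of the 16 genes without values here.

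The GABA-B receptor genes were at trace level, whereas the 3 Gi/o protein subunit genes of highest CPM listed with them were abundant. The other subunit genes ranged widely. Gng5 and Gnai3, named after their values were seen, had means of 219.7 and 160.3 CPM. At the low end, 5 tested genes of this list, both receptor genes among them, had a mean under 1 CPM. Gnai1 and Gnb4 had means of 0.244 and 0.251 CPM. Of 21 listed genes of the receptor and the Gi/o protein, 17 were tested, and the median log2 difference was -0.11. edgeR called 0 of them, DESeq2 0 and limma-voom 0, against 0.953%, 4.22% and 0.413% of all genes. An unadjusted p under 0.05 by edgeR was found for 0, against 14.2% of all genes. Gnb1, encoding a beta subunit, had 367 and 356 CPM in control and 343 and 356 CPM in knockdown libraries. Gnb2 had 259 and 305 against 281 and 224 CPM, and Gnai2, an inhibitory alpha subunit, 271 and 254 against 265 and 263 CPM. The receptor subunits, named after their values were seen, had 63, 58, 14 and 0 counts for Gabbr1 and 38, 8, 19 and 0 counts for Gabbr2 (control 1 and 2, knockdown 1 and 2). Their adjusted p by edgeR was 0.379 and 0.806. The 6 neuron markers summed to 7.43, 7.63, 3.98 and 0 CPM in the same libraries, and their part in the receptor values was not tested.

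The cullin-3 ligase itself was expressed in all 4 libraries. Its core genes Cul3 and Rbx1, named after their values were seen, had means of 142 and 158 CPM. The list held 23 tested genes of the ligase core, the NEDD8 pathway that activates it and the COP9 signalosome that turns it off. edgeR called 0 of them, against 0.953% of all genes. An unadjusted p under 0.05 by edgeR was found for 2, both lower, against 14.2% of all genes, and the median was 0.03. Cops6 had 219 and 215 CPM against 217 and 221 CPM, Nedd8 200.2 and 156 against 212 and 158 CPM, and Cand1, which swaps adaptors on cullins, 173 and 156 against 165 and 170.3 CPM. Of 39 tested genes of other BTB adaptors, 0 were called by edgeR, 11 had an unadjusted p under 0.05 (6 higher, 5 lower) against 14.2% of all genes, and the median was 0.06. Spop had 175 and 171 against 158 and 173 CPM, Ivns1abp 135 and 138 against 136 and 137 CPM, and Klhl22 85.9 and 97.2 against 107 and 106 CPM. DESeq2 called 3 adaptors, against 4.22% of all genes, and they are named after their values were seen. Klhl6, known from B lymphocytes, had 18.6 and 18.3 CPM in control and 27.7 and 27.7 CPM in knockdown libraries (adjusted p = 0.00364 by DESeq2 and 0.0876 by edgeR). Klhl20 had 24.3 and 22.1 against 10.4 and 14.7 CPM (adjusted p = 0.00299 by DESeq2 and 0.103 by edgeR). Btbd6 had 2.35 and 5.29 against 13.7 and 12.4 CPM (adjusted p = 0.000418 by DESeq2 and 0.172 by edgeR), and edgeR called it without control library 2 (adjusted p = 0.0401). With no filter on low counts edgeR called Klhl6 and Klhl20 (adjusted p = 0.0443 and 0.0382), against 1.30% of all genes in that fit.

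The remaining lists hold mainly genes downstream of the members' known partners. The first holds adenylyl cyclases, which G protein subunits regulate, and cAMP-dependent kinase genes. It also holds the G protein subunit gene Gnas and the transcription factor gene Creb1. Of its 15 tested genes, 0 were called by edgeR, 4 had an unadjusted p under 0.05 (1 higher, 3 lower), and the median was -0.08. Gnas had 771 and 724 CPM in control and 733 and 683 CPM in knockdown libraries, Prkar1a 243 and 219.7 against 252 and 255 CPM, and Prkar2a 156 and 166 against 183 and 182 CPM. Of 20 tested genes of RhoA and its effectors, 0 were called by edgeR, 1 had an unadjusted p under 0.05, lower, and the median was -0.01. Cfl1, the actin-severing protein cofilin, had 2114 and 1939 against 1959 and 1877 CPM. Arhgdia had 1075 and 1003 against 1190 and 1065 CPM and Arhgdib 583 and 603 against 566 and 553 CPM. Without knockdown library 2 edgeR called 1 gene of this list, the myosin light chain gene Myl12a (adjusted p = 0.0238), which had 157 and 159 CPM in control and 318 and 176 CPM in knockdown libraries and is named after its values were seen. Of 12 tested genes of Akt kinases and their regulators, 0 were called by edgeR, 4 had an unadjusted p under 0.05 (2 higher, 2 lower), and the median was -0.01. Akt1 had 428 and 405 against 430 and 390.1 CPM, and Ppp2ca 378 and 372 against 362 and 380 CPM. Over all 7 lists edgeR called 0 of 136 genes, limma-voom 0 and DESeq2 4, against 0.953%, 0.413% and 4.22% of all genes. An unadjusted p under 0.05 by edgeR was found for 25 (18.4%), against 14.2% of all genes.

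**Figure D4:**
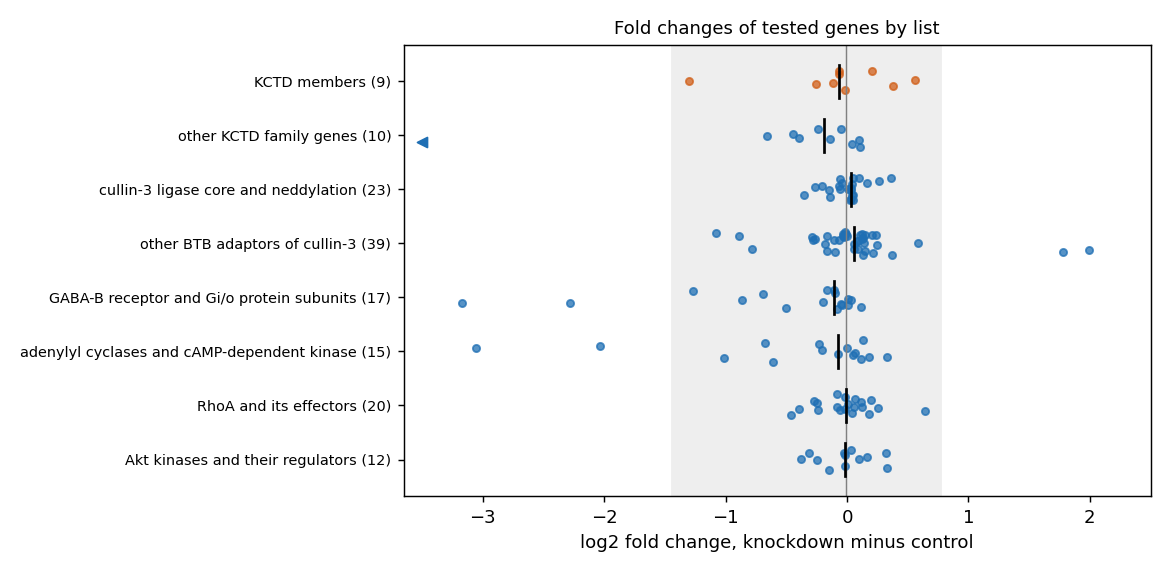
Log2 fold change, knockdown minus control (x axis), of each tested gene by list (y axis, number tested in brackets), with a black bar at each list's median, a grey line at the median of all genes tested and a grey band from their 5th to their 95th percentile, -1.44 to 0.77. The 9 members are orange, with Kctd12 at -1.30 and the other 8 between -0.25 and 0.56; the arrowhead marks 1 gene of the other KCTD family with 0 counts in both knockdown libraries, beyond the axis.

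Genes whose pattern over the 4 libraries lay closest to that of Kctd12 were taken from the 9981 other tested genes whose mean reached 5 CPM, by the root mean square difference of log2 CPM centred on each gene's mean. With 4 libraries in 2 groups, such likeness mostly repeats the size of the group difference, and it is given as a description. The closest was Hp, encoding the haemoglobin-binding protein haptoglobin, at a distance of 0.051. It had 43.6 and 43.4 CPM in control and 19.3 and 18.3 CPM in knockdown libraries. Syt7, a calcium sensor of membrane fusion, followed at 0.084 with 8.90 and 9.35 against 4.05 and 4.17 CPM. C1qc, a chain of complement C1q, lay at 0.084 with 118 and 121 against 52.6 and 55.5 CPM. Marco, a macrophage scavenger receptor, lay at 0.102 with 165 and 167 against 66.9 and 78.4 CPM, and Rarg, a retinoic acid receptor, at 0.102 with 7.42 and 7.21 against 3.07 and 2.53 CPM. All 5 were lower in both knockdown libraries than in either control library, as the measure of likeness required.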

How the data were processed

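The deposited estimated counts were whole numbers per Ensembl gene, not normalised, and the deposited FPKM values were named so per the file headers. The submitters' processing notes name Bowtie (0.12.2) and build mm8. The counting program, its strand setting and any pooling of reads between models are not given in the sources used here. Coordinates are the files' own: 21876 of 24422 genes (89.6%), and 8 of the 9 members (not Kctd3), have the start and end of GENCODE M21 on GRCm38. Another 12 columns matching no labelled sample were not used. Of counts from 1 to 20, 42.1% to 47.2% were multiples of 4, and the rest were not. As a working assumption 1 fragment was taken as 4 counts, and the floor as 3 fragments (12 counts). Counts such as the 1 and 1 of Mir5130 in control libraries are not multiples of 4, so the conversion is not exact. Intervals were not computed, and floors cover counting error only.

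Counts (libraries of 75.7, 61.0, 74.7 and 64.3 M) were tested with edgeR 4.0.16 (R 4.3.3), using TMM scaling, the filterByExpr filter on groups and the robust quasi-likelihood F test, two-sided, with Benjamini-Hochberg adjustment over 15733 genes. CPM are TMM-scaled. A chi-square of fragments between replicates, divided by its degrees of freedom, gave 16.2 (control) and 16.9 (knockdown). Under the inexact conversion of 4 counts per fragment, the replicates thus differed by more than counting error alone. It cannot decide whether replicates came from the same RNA or culture, and libraries of different groups were not compared. The script was tested on simulated data.

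Alternatives were scaling by RLE factors or by library totals, no filter, DESeq2 1.42.0, at least 1 CPM in every library, limma-voom (limma 3.58.1), no robust option, limma on log2(FPKM + 1) or log2(FPKM + 0.1), an adjusted p under 0.01, each library left out, and a replicate block. Counts divided by 4 and merged overlapping models were added after the data were seen.

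The members, lists and tests were chosen with earlier results of these data known. Named genes are the 9 members, each list's called genes (at most 4) and 3 of highest CPM, gene models overlapping a member, the nearest tested neighbours of Kctd12 and the 5 genes most like it; others are marked as named after their values were seen. A gene that this rule names is not reported here. Upstream sequences and the microRNA come from RefSeq (GRCm38.p6).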

Additional observations from a re-analysis of the deposited data

How the results depend on the processing

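The number of genes called, 150, was 7 without edgeR's robust option, 297 with no filter, 681 with DESeq2, 65 with limma-voom, 3 and 4 with limma on log2(FPKM + 1) and log2(FPKM + 0.1), 7 at an adjusted p under 0.01, and 41 to 112 with 1 library left out (62 without control replicate 1, 41 without control replicate 2, 42 without knockdown replicate 2). The Kctd12 difference was -1.31 with RLE factors, -1.33 with library totals alone, -1.32 with the stricter filter, -1.26 and -1.33 on log2(FPKM + 1) and log2(FPKM + 0.1), -1.31 with counts divided by 4, -1.29 with Mir5130 counts added, and -1.31 to -1.29 with 1 library left out. All of these kept the direction. The shifts passed its replicate spread of 0.009, apart from those without control replicate 1 or control replicate 2 (differences of -1.301 and -1.296), which stayed within it. Members called numbered 0 on both FPKM scales and 1 to 2 with 1 library left out, the second being Kctd20 without control replicate 1. List genes called numbered 2 with no filter, 4 with DESeq2 and 0 to 1 with 1 library left out. The causes were not tested. With 1 library left in a group, it is assumed to vary like the other group.

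Libraries of the same number did not deviate together (correlation 0.049). With 2 libraries per group this cannot decide whether the numbers pair them. With a replicate block edgeR called 0 genes (2055 at an unadjusted p under 0.05) and 0 members, with the Kctd12 difference at -1.30 (adjusted p = 0.0521). Depth limits Six2, Mir5130, Gabbr1, Gabbr2 and the low KCTD genes, whose values rest on a few fragments.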
